A study of Mus musculus with 12 samples.

Results

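The 7 CC chemokine genes Ccl2, Ccl5, Ccl7, Ccl8, Ccl11, Ccl19 and Ccl20 were followed in dermal fibroblasts before and after skin wounding. They were picked by symbol from the 25239 genes of the count table, and all 7 had enough counts to be tested. The cells came from the back skin of wild-type male C57BL/6 mice at 8 weeks of age. Mice either had no wound (NW) or full-thickness 4 mm punch wounds harvested at 16 h, 1.5 d or 3 d. Each of the 4 groups held 3 mice, with 1 library a mouse. All 12 libraries were made from live cells sorted for SCA1 and against CD45 and CD31, so leukocytes and endothelium were gated out in wounded and unwounded skin alike, and fibroblasts without SCA1 were not seen.

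CC chemokines are small secreted proteins with a pair of adjacent cysteines near the amino end. They bind glycosaminoglycans around the cell that releases them and draw in leukocytes that carry the matching G protein-coupled receptor. CCL2 and CCL7 act on CCR2 of inflammatory monocytes, CCL11 (eotaxin) acts on CCR3 of eosinophils, and mouse CCL8 is a ligand of CCR8. CCL5 binds CCR1 and CCR3, CCL19 binds CCR7 of dendritic cells and T cells, and CCL20 binds CCR6. Stromal cells release several of them when interleukin 1, tumour necrosis factor or interferons reach the tissue.

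Library totals were 26389453 to 43493475 counted fragments. At these totals 3 fragments stood for 0.069 to 0.114 CPM (counts scaled to a common library size), before the TMM scaling used for the levels given here. Ly6a, the gene of SCA1, lay between 869 and 2915 CPM in every library. Ptprc, which encodes CD45, was at most 8.70 CPM, Pecam1 (CD31) at most 3.98 CPM, and Cd3e had no count. The 10 eosinophil and mast cell markers summed to at most 1.27 CPM in a 16 h library and 1.19 CPM in an NW library. Siglecf and Epx, which define eosinophils, had no count at 16 h or in NW skin. Of 13 macrophage and monocyte markers, 6 were called higher and 1 lower at 16 h, and 6 higher and 0 lower at both 1.5 d and 3 d against NW. Of all genes tested, 24.7% were called at 16 h, 24.5% at 1.5 d and 21.1% at 3 d. Csf1r, the marker called lower, averaged 16.6 CPM at 16 h and 60.1 CPM in NW skin. The other 12 summed to 35.9 to 93.8 CPM at 16 h, 38.6 to 70.1 CPM at 1.5 d and 45.1 to 64.9 CPM at 3 d. In NW skin they summed to 10.5 to 23.5 CPM, so their sum was higher in every wound library, beside the chemokines. Single markers did not all follow the sum. C1qa averaged 0.060 CPM at 16 h and 0.271 CPM in NW skin. For Ptprc the lowest 16 h library had 1.47 CPM and the highest NW library 2.56 CPM. Lyz2, for lysozyme, averaged 22.2 CPM at 16 h and 3.32 CPM in NW skin. The 8 neutrophil markers summed to 9.46 to 22.1 CPM at 16 h, against 0.329 to 2.78 CPM in NW skin. Keratinocyte transcripts were the largest other signal. The 18 markers took 0.922 to 1.54% of counts at 16 h, 0.451 to 0.797% at 1.5 d and 0.0882 to 1.45% at 3 d, against 2.00 to 4.07% in NW skin. The part of these cells in the results below was not tested beyond the fit with the keratinocyte share as a covariate. Levels below are CPM after TMM scaling, with mean ± SD over n = 3 mice. In bulk libraries fewer cells with a transcript and less transcript per cell cannot be told apart.

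Fibroblasts carried 2 of the chemokines at very high levels with or without a wound. Ranked by CPM per kilobase of exon, Ccl2 stood between rank 4 and rank 38 of the 25239 genes in every library, and Ccl7 between rank 3 and rank 69. In NW skin the order per kilobase was Ccl2 (1714 CPM per kb), Ccl7 (976), Ccl11 (121), Ccl8 (32.7), Ccl20 (8.29), Ccl19 (1.00) and Ccl5 (0.311). At 16 h it was Ccl2 (2843 CPM per kb), Ccl7 (2831), Ccl11 (209.9), Ccl8 (168), Ccl20 (12.0), Ccl19 (5.89) and Ccl5 (1.29). The first pair did not differ beyond their spread at 16 h, since the ratio of Ccl7 to Ccl2 was 0.993 ± 0.017. At 3 d Ccl8 (195 CPM per kb) stood above Ccl11 (83.4 CPM per kb) in all 3 libraries. Together the 7 genes took 0.380 to 0.734% of all counts at 16 h, 0.305 to 0.627% at 1.5 d and 0.183 to 0.368% at 3 d, against 0.141 to 0.308% in NW skin.

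**Figure D1:**
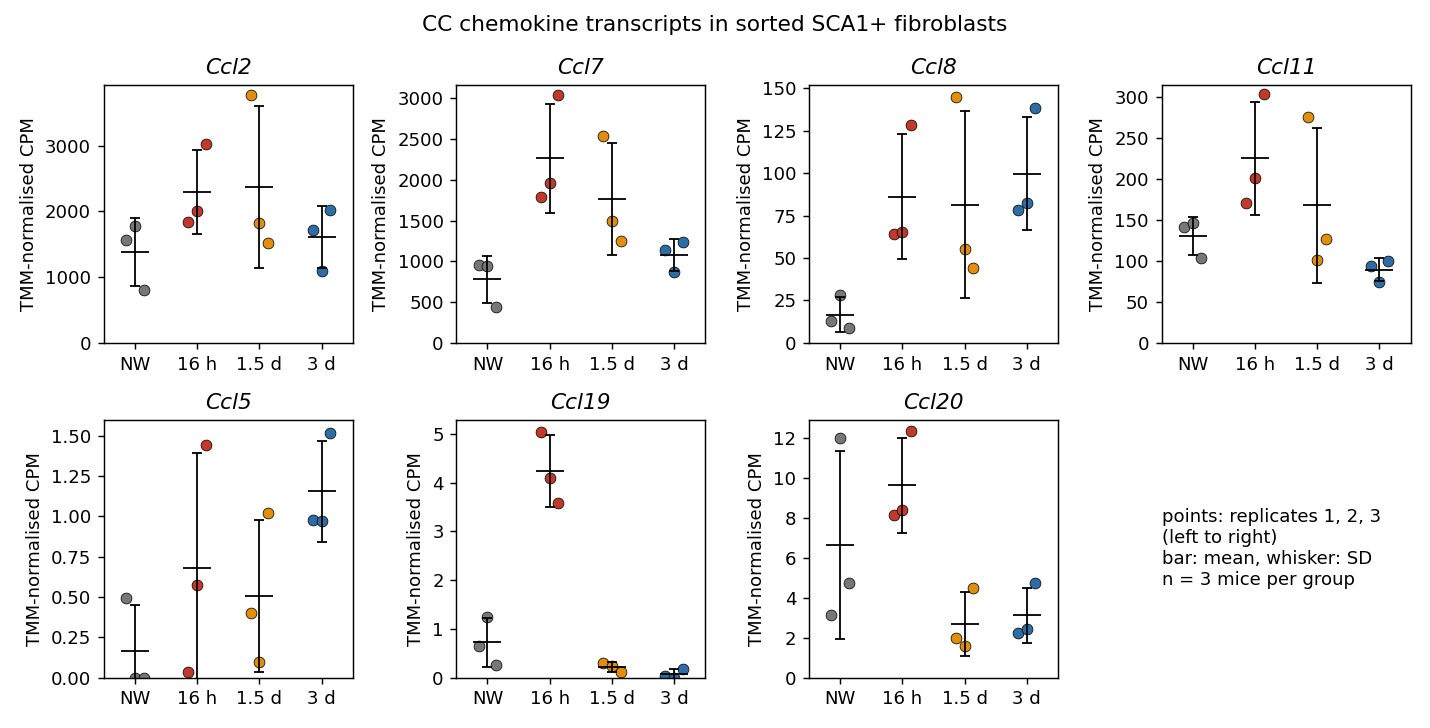
TMM-normalised CPM of each of the 7 chemokine genes (linear axes from 0, each with its own scale) in the 3 libraries of NW skin and of wounds at 16 h, 1.5 d and 3 d; bars are means and whiskers SD. Every wound library lies above every NW library for Ccl8, the 16 h libraries stand above all others for Ccl19, and Ccl2 overlaps between NW and both later times.

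Of the 7 genes, 2 were called higher at 16 h, 2 at 1.5 d and 1 at 3 d against NW skin, and 1 was called lower at 3 d (edgeR quasi-likelihood test, Benjamini-Hochberg adjusted p under 0.05 over 14901 genes). Over all genes tested 24.7% were called at 16 h (13.5% higher), 24.5% at 1.5 d (13.7% higher) and 21.1% at 3 d (12.0% higher and 9.15% lower), so the 28.6% of the 7 called at each time was close to the background. All 7 changes were positive at 16 h, with a median of 1.54 on the log2 scale against -0.04 over all genes. The median was 0.78 at 1.5 d, against 0.01 over all genes, and 0.22 at 3 d, against 0.00. Wound and NW libraries were fully separated for 5 of the 7 at 16 h, for 2 at 1.5 d and for 4 at 3 d, and over all genes this held for 41.3% at 16 h, 40.7% at 1.5 d and 40.3% at 3 d. A test for any difference among the 4 groups called 4 of the 7, Ccl7, Ccl8, Ccl11 and Ccl19, and 29.7% of all genes. The call for Ccl11 (edgeR adjusted p = 0.0435) was lost in 11 of 20 alternatives, with adjusted p of up to 0.117, among them 8 that left out 1 library, DESeq2 size factors and the keratinocyte covariate.

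Ccl8 was the member called against NW skin at all 3 times. It had 64.1, 65.5 and 129 CPM at 16 h, 145, 55.1 and 44.3 CPM at 1.5 d and 78.5, 82.6 and 138 CPM at 3 d, against 13.2, 28.4 and 8.55 CPM in NW skin. The lowest wound library was above the highest NW library. The log2 change was 2.36 ± 0.52 (SE) at 16 h (edgeR adjusted p = 0.00606), 2.28 ± 0.52 at 1.5 d (edgeR adjusted p = 0.0071) and 2.58 ± 0.53 at 3 d (edgeR adjusted p = 0.00444). All 21 alternative settings kept the call at each time. The size depended on single libraries: without NW replicate 2 the log2 change was 2.99 at 16 h, 2.91 at 1.5 d and 3.20 at 3 d, and without 1.5 d replicate 1 it was 1.58 at 1.5 d. Between wound times no change of Ccl8 passed the test: it was 0.21 ± 0.50 at 3 d over 16 h on the log2 scale (edgeR adjusted p = 0.844). The test for any difference gave an edgeR adjusted p of 0.0120, and 0.0512 without NW replicate 1.

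Ccl7, a monocyte attractant beside Ccl2 in the genome, rose early. It had 1792, 1959.95 and 3035 CPM at 16 h and 2541, 1495 and 1245 CPM at 1.5 d, against 954, 942 and 444 CPM in NW skin. All 6 of these wound libraries lay above the NW libraries. The log2 change was 1.54 ± 0.35 at 16 h (edgeR adjusted p = 0.00715), a 2.90-fold rise that kept its call under all 21 alternatives. At 1.5 d it was 1.17 ± 0.35 (edgeR adjusted p = 0.0266). That call was lost without NW replicate 3 (edgeR adjusted p = 0.0852), without 1.5 d replicate 1 (edgeR adjusted p = 0.109) and with the keratinocyte share as a covariate (edgeR adjusted p = 0.190), where the log2 change was 1.12. At 3 d Ccl7 had 1142, 864 and 1242 CPM, which overlapped the NW range. Against 16 h the 3 d level was lower in every library, at -1.06 ± 0.35 on the log2 scale, but short of the threshold (edgeR adjusted p = 0.0730). It was called in 5 of 21 alternatives, with total-count scaling (edgeR adjusted p = 0.0360), DESeq2 (DESeq2 adjusted p = 0.0322), these 2 groups alone (edgeR adjusted p = 0.0453), and without NW replicate 3 (edgeR adjusted p = 0.0422) or 1.5 d replicate 1 (edgeR adjusted p = 0.0485).

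Ccl2, which encodes the main ligand of CCR2, did not pass the test in any comparison. It had 1841, 2009.9 and 3023 CPM at 16 h, 3777, 1823 and 1513 CPM at 1.5 d and 1713, 1098 and 2022 CPM at 3 d, against 1559.6, 1786 and 800.4 CPM in NW skin. The 16 h libraries were all above NW, the lowest of them by a small margin, while the 2 later times overlapped NW. The log2 change was 0.73 ± 0.39 at 16 h (edgeR adjusted p = 0.192), 0.78 ± 0.39 at 1.5 d (edgeR adjusted p = 0.167) and 0.22 ± 0.39 at 3 d (edgeR adjusted p = 0.737). None of the 21 alternatives brought a call for Ccl2.

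Ccl11, the eotaxin gene, was highest on average at 16 h and lowest at 3 d. It had 93.8, 74.1 and 100.5 CPM at 3 d, against 171, 202 and 303 CPM at 16 h, and these groups did not overlap. The log2 change of 3 d over 16 h was -1.33 ± 0.35 (edgeR adjusted p = 0.0292), a 2.52-fold fall. Over all genes 9.53% were called in this comparison (3.67% lower), against 2 of the 7 chemokine genes, Ccl11 and Ccl19. The call for Ccl11 was lost in 5 fits that each left out 1 library, namely 16 h replicates 2 and 3 and each of the 3 d replicates, with edgeR adjusted p of 0.0582 to 0.105. It was also lost with the keratinocyte share as a covariate (edgeR adjusted p = 0.0601), where the log2 change was -1.37. Neither 16 h, with all libraries above NW (0.79 ± 0.34, edgeR adjusted p = 0.110), nor 3 d, with all below (-0.54 ± 0.34, edgeR adjusted p = 0.288), passed the test against the 142, 146 and 103 CPM of NW skin. The 16 h change was called in 1 of 21 alternatives, without 1.5 d replicate 1 (edgeR adjusted p = 0.0320). At 1.5 d the range was wide, with 276, 101 and 126 CPM.

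**Figure D2:**
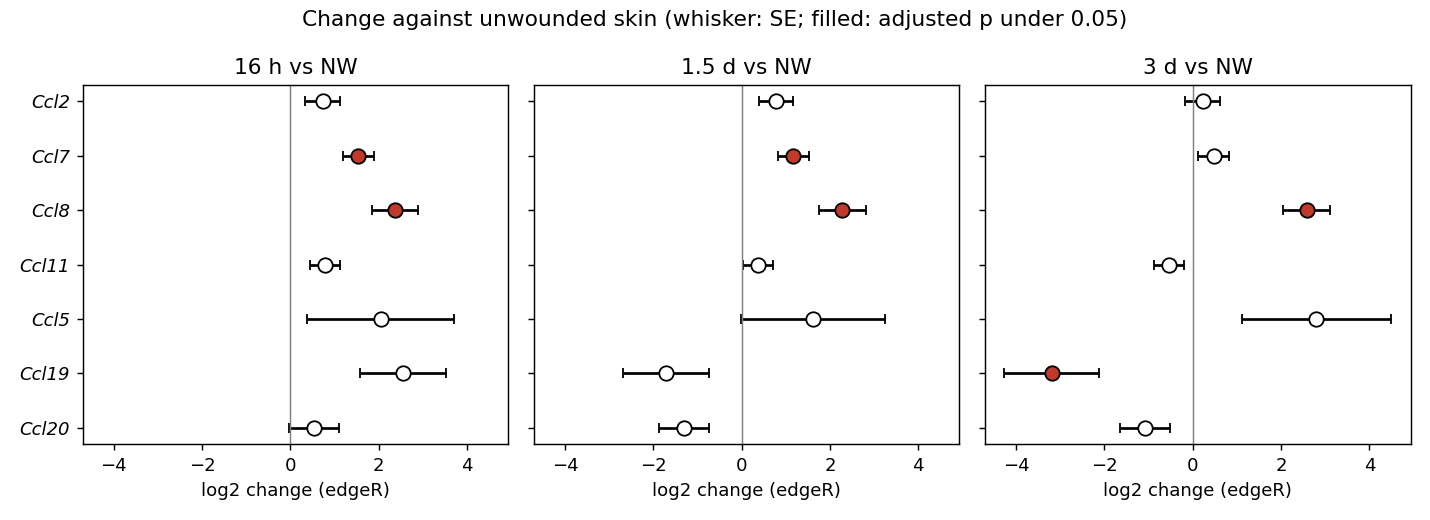
Log2 change of each chemokine gene at 16 h, 1.5 d and 3 d against NW skin, with whiskers of 1 SE; filled points passed the edgeR test at an adjusted p under 0.05. Ccl8 is filled in all 3 panels, Ccl7 at 16 h and 1.5 d, and Ccl19 at 3 d on the negative side.

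Ccl19, the CCR7 ligand that guides dendritic cells, was low throughout and peaked at 16 h. It had 5.04, 4.10 and 3.59 CPM at 16 h, 0.300, 0.246 and 0.111 CPM at 1.5 d and 0.0407, 0 and 0.181 CPM at 3 d, against 0.648, 1.25 and 0.265 CPM in NW skin. These are 151, 136 and 107 fragments at 16 h and 1, 0 and 5 at 3 d. The 16 h libraries did not overlap any other group. The log2 change of 3 d over 16 h was -5.74 ± 1.16 (edgeR adjusted p = 0.00832), a call kept under all 21 alternatives. For 1.5 d over 16 h it was -4.26 ± 1.06 (edgeR adjusted p = 0.0496), where 2.86% of all genes were called (0.470% lower), and 12 of the 21 alternatives lost that call. The rise at 16 h over NW, 2.55 ± 0.98, missed the threshold (edgeR adjusted p = 0.0731) and passed with DESeq2 (DESeq2 adjusted p = 0.00538), limma-voom (limma-voom adjusted p = 0.00991) and an edgeR fit of these 2 groups alone (edgeR adjusted p = 0.0389). The fall at 3 d against NW, -3.19 ± 1.07, was called at an edgeR adjusted p of 0.0498, and 16 of the 20 alternatives that gave a value lost it, among them 10 of the 12 that left out 1 library. With the keratinocyte share as a covariate this log2 change was -2.11 (edgeR adjusted p = 0.583). The annotation used for counting places Ccl19 at 2 loci, on chromosome 4 and on an unplaced scaffold, with 720 exon bases each. Fragments that align to both would not have been counted, so its level may be understated by an amount that was not tested. Per-kilobase values of Ccl19 here use 720 bases, not the 1440 of the table.

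Ccl20, the CCR6 ligand, had 8.14, 8.40 and 12.4 CPM at 16 h, 1.97, 1.60 and 4.51 CPM at 1.5 d and 2.24, 2.43 and 4.73 CPM at 3 d, against 3.17, 12.0 and 4.74 CPM in NW skin. Both later times lay below every 16 h library, by -1.83 ± 0.58 at 1.5 d (edgeR adjusted p = 0.116) and -1.62 ± 0.57 at 3 d (edgeR adjusted p = 0.0963) on the log2 scale. DESeq2 called both differences, with DESeq2 adjusted p of 0.0250 at 1.5 d and 0.0416 at 3 d. Ccl5 was near the detection floor. It had 1, 19 and 43 fragments at 16 h, 12, 4 and 46 at 1.5 d and 24, 24 and 42 at 3 d, against 13, 0 and 0 in NW skin. The largest of these is 1.52 CPM. No difference of Ccl5 passed the test, and its change at 3 d against NW was 2.80 ± 1.69 (edgeR adjusted p = 0.269). Without NW replicate 1, which held every NW fragment of the gene, it was called at 16 h (edgeR adjusted p = 0.0441) and 3 d (edgeR adjusted p = 0.0352). At 3 d over 1.5 d no member was called by edgeR, 1 of 7 (Ccl11) had an unadjusted p under 0.05, DESeq2 and limma-voom also called 0, and 0.141% of all genes were called.

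The 4 most abundant members lie together on chromosome 11, in mm10 coordinates and all on the plus strand. Ccl2 spans chr11:82035577-82037452, Ccl7 chr11:82045712-82047523, Ccl11 chr11:82057832-82062955 and Ccl8 chr11:82115185-82116799, a stretch of 81.2 kb. Each has 3 exons, and none shares exon bases with another gene. Ccl12 lies inside this stretch, between Ccl11 and Ccl8, at chr11:82101845-82103399, and in mice encodes another CCR2 ligand. It held 6 fragments over the 3 libraries at 16 h, 0 at 1.5 d and 18 at 3 d, and 0 in NW skin. Ccl1, which encodes a CCR8 ligand and follows Ccl8 at chr11:82176666-82179812, held 0 at 16 h, 0 at 1.5 d and 2 at 3 d, against 2 in NW skin. Ccl5 is on the same chromosome at chr11:83525779-83530518 on the minus strand. Ccl20 is at chr1:83116766-83119167 and the chromosome 4 copy of Ccl19 at chr4:42754525-42756518.

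The 4 neighbours on chromosome 11 varied together from mouse to mouse, as did some genes elsewhere. In deviations of log2 CPM from the group mean over the 12 libraries, Ccl2 and Ccl7 had a Pearson r of 0.975 and a Spearman rho of 0.965. Without the 2 libraries farthest from the median for Ccl2, r was 0.966. For the other 5 pairs among Ccl2, Ccl7, Ccl8 and Ccl11, r was between 0.830 and 0.902 and, without 2 libraries, between 0.777 and 0.865. Ccl19 on chromosome 4 had an r of 0.729 with Ccl2, 0.657 with Ccl7, 0.691 with Ccl8 and 0.400 with Ccl11. Ccl5, farther along chromosome 11, had an r of 0.307 with Ccl2, and Ccl20 on chromosome 1 had 0.159. Cdk2ap1 and Psmb4, the non-chemokine genes most like Ccl2 over the libraries, reached 0.962 and 0.940 with Ccl2 in the same measure. These values describe libraries that share their cells and depth, and they carry no test. At 16 h replicate 3 was the highest for 6 of the 7 genes and replicate 1 the lowest for 6. At 3 d replicate 3 was the highest for all 7. In NW skin replicate 3 was the lowest, or level with the lowest, for 6. The 16 h replicate 3 also had the largest share of Rn45s, the ribosomal RNA precursor, at 2.01% of counts. The 3 d replicate 3, highest for all 7 genes in its group, had the smallest share, at 0.328%.

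**Figure D3:**
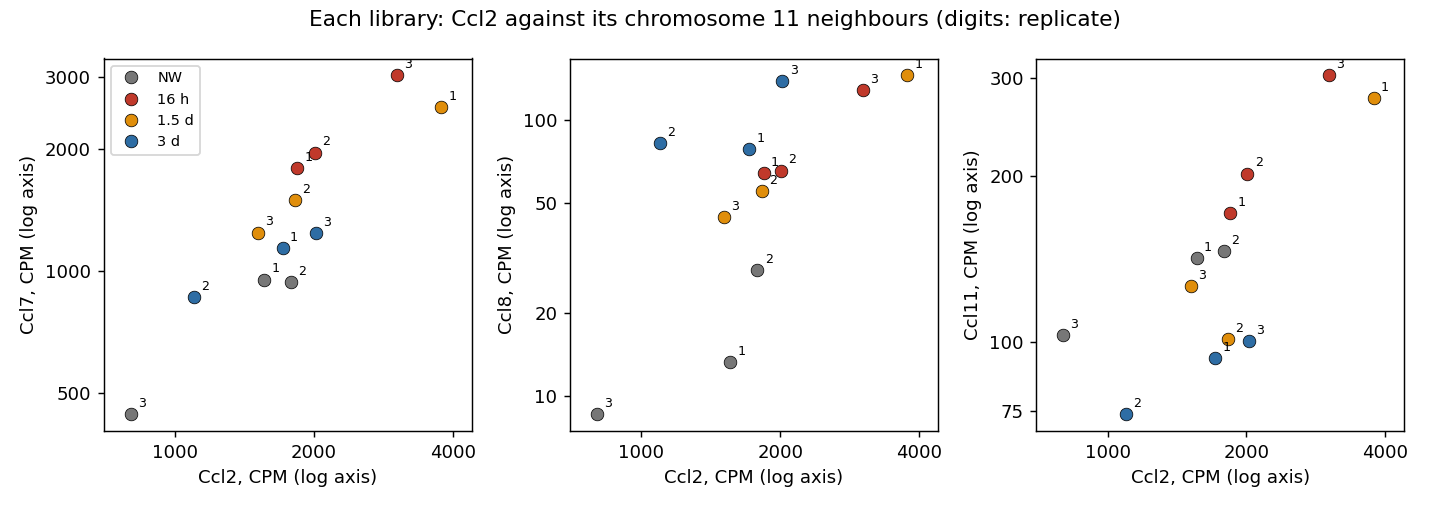
Ccl2 against Ccl7, Ccl8 and Ccl11 in CPM on log axes, 1 point a library, coloured by group and numbered by replicate. Within a group the libraries with more Ccl2 mostly have more of the neighbour, while for Ccl8 the NW libraries lie below the others.

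Ratios within a library compare the neighbours independently of its total. Ccl7 over Ccl2, per kilobase, was 0.982, 0.984 and 1.01 at 16 h, against 0.617, 0.532 and 0.560 in NW skin. It was 0.679, 0.827 and 0.830 at 1.5 d and 0.673, 0.794 and 0.619 at 3 d, all above NW and below 16 h. Ccl8 over Ccl2 was 0.0578 ± 0.0082 at 16 h, 0.0515 ± 0.0079 at 1.5 d and 0.0996 ± 0.0243 at 3 d, against 0.0184 ± 0.0060 in NW skin. Here every wound library was above NW, and every 3 d library above the earlier wounds. Ccl11 over Ccl2 went the other way by 3 d, at 0.0431 ± 0.0069 against 0.0755 ± 0.0187 in NW skin, with no overlap. Of the summed CPM per kilobase of the 7 genes, Ccl2 held 46.9% at 16 h, 53.1% at 1.5 d and 54.4% at 3 d, against 59.9% in NW skin. Ccl7 held 46.6% at 16 h, 41.2% at 1.5 d and 37.7% at 3 d, against 34.1% in NW skin. The share of Ccl8 was 2.71% at 16 h, 2.75% at 1.5 d and 5.39% at 3 d, against 1.11% in NW skin. No test was run on shares or ratios.

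**Figure D4:**
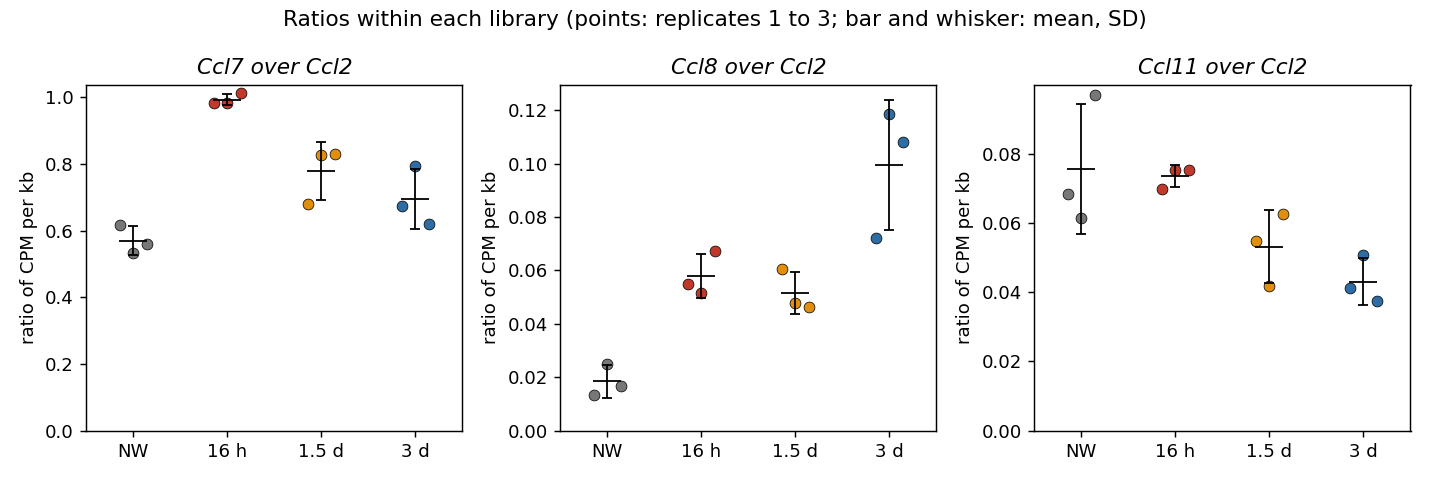
Ratios of CPM per kilobase within each library for Ccl7, Ccl8 and Ccl11 over Ccl2, with mean and SD of the 3 libraries of each group. Ccl7 over Ccl2 is near 1 in the 16 h libraries (0.982 to 1.01) and Ccl8 over Ccl2 is highest at 3 d (mean 0.0996).

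Promoters were at hand for Ccl8, Ccl19 and Ccl20 (3 of the 7 genes), from RefSeq on GRCm38.p6. These 3 are shown because the other members had no promoter at hand, and they were not picked by time course. The 250 bases before each start are given on the gene's own strand, at chr11:82114935-82115184 (plus) for Ccl8, chr4:42756366-42756615 (minus) for Ccl19 and chr1:83116516-83116765 (plus) for Ccl20. These are the starts of the RefSeq table. They match the counting annotation for Ccl8 and Ccl20, while for Ccl19 the RefSeq start lies 153 bases inside the annotated gene, so that 153 of the 250 bases shown belong to the gene as counted. Capitals mark matches to the motifs named in the next paragraph.
Ccl8: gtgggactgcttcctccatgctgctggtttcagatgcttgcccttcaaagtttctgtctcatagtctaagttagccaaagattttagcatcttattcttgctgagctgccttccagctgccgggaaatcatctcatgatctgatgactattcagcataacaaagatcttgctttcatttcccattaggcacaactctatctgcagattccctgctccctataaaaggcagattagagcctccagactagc
Ccl19: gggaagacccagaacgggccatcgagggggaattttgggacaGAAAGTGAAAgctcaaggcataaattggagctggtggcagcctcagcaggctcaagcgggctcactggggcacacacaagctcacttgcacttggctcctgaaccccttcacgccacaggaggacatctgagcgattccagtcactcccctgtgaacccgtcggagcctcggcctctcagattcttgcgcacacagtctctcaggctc
Ccl20: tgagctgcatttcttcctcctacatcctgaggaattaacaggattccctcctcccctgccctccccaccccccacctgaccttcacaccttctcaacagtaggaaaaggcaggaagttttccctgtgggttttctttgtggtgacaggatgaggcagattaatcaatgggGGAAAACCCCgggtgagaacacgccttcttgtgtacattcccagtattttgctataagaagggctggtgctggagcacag

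Both strands of the 300 bases from 250 before to 50 after each start were searched for 5 motifs. These were the NF-kB consensus, the interferon-stimulated response element, AP-1 (TGANTCA), C/EBP (TTGCNNAA) and the STAT6 element. Ccl20 held 1 NF-kB match, beginning 80 bases before the start; 8.46% of 32851 promoters hold at least 1. Ccl19 held 1 interferon-stimulated response element, beginning 208 bases before the RefSeq start; 3.44% of promoters hold 1. Ccl8 held none of the 5. The shares of promoters with the other motifs were 7.81% for AP-1, 10.8% for C/EBP and 6.95% for STAT6. A match describes the letters only, and motifs may overlap in letters.

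The genes whose log2 CPM followed a member most closely over the 12 libraries were taken from 7698 tested genes that averaged 20 CPM or more in some group. Nearest to Ccl7 was Cxcl1, a neutrophil chemokine, with a Pearson r of 0.982. Cxcl1 averaged 3567 CPM at 16 h, 2656 at 1.5 d and 1563 at 3 d, against 1066 in NW skin. Glul, glutamine synthetase, followed with an r of 0.962 and Mrpl15, a mitochondrial ribosomal protein gene, with 0.960. Nearest to Ccl8 were Akr1b8, an aldo-keto reductase gene (0.951), Col27a1, a fibrillar collagen gene (0.943), and Pfn1, which encodes the actin-binding profilin (0.938). Nearest to Ccl2 were Cdk2ap1 (0.962), the proteasome gene Psmb4 (0.959) and the ubiquitin-conjugating enzyme gene Ube2n (0.958). Ccl11 was nearest to Kti12 (0.940), Cnbp (0.927) and Eef1e1 (0.927), and Ccl19 to Rbm34 (0.932), Ybx3 (0.930) and Hgh1 (0.921). Ccl20 was nearest to Btbd10 (0.897), Spryd7 (0.838) and Ap1ar (0.827). Ccl5 was nearest to Irf9 (0.869), a subunit of the interferon-activated factor ISGF3, then Parp3 (0.835) and Slfn8 (0.834). The values span 4 groups and describe likeness only.

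Of 16 other CC chemokine genes, 6 were tested. Against NW skin 2 were called higher and 1 lower at 16 h, 4 and 1 at 1.5 d, and 2 and 1 at 3 d. The shares called over all genes tested were 24.7% at 16 h, 24.5% at 1.5 d and 21.1% at 3 d. Ccl9, a CCR1 ligand in mice, had 11.4, 6.77 and 15.6 CPM at 3 d, against 1.75, 0.0658 and 0.497 CPM in NW skin, a log2 change of 3.87 ± 0.80 (edgeR adjusted p = 0.0046). Ccl3, a ligand of CCR1, had no count in NW skin and averaged 0.952 CPM at 3 d, at least 27.1-fold higher against a floor of 3 counts over the NW group (edgeR adjusted p = 0.0136). The 3 d libraries held 2.12, 0.162 and 0.578 CPM, and without replicate 1, left out after its value was seen, the bound was 10.5-fold. Ccl27a, which keratinocytes make to draw skin-homing T cells through CCR10, had 8.94, 5.66 and 13.6 CPM at 16 h, against 91.6, 226 and 81.8 CPM in NW skin. Its log2 change was -3.82 ± 0.71 (edgeR adjusted p = 0.00216), beside the keratinocyte shares given above, which were also lower at 16 h; their part in this fall was not tested. Ccl21a, Ccl21b and Ccl21c had no count in any library, and as near-identical copies their levels are uncertain.

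Receptors for these ligands were scarce. Of 11 CC receptor genes 8 were tested, with 2 called higher and 1 lower at 16 h, 2 and 2 at 1.5 d, and 1 and 2 at 3 d against NW. Among all genes tested 24.7% were called at 16 h, 24.5% at 1.5 d and 21.1% at 3 d. Ccr1 averaged 3.08 ± 1.78 CPM at 16 h and had no count in NW skin, at least 87.6-fold higher against 3 counts over the NW group (edgeR adjusted p = 0.00178). Ptprc averaged 4.24 CPM at 16 h and 0.852 CPM in NW skin beside it, and the part of leukocytes in the level of Ccr1 was not tested. Ccr4, the receptor of CCL17 and CCL22, fell to 0.985 ± 0.967 CPM at 16 h, against 6.14 ± 0.75 CPM in NW skin (log2 change -2.64 ± 0.79, edgeR adjusted p = 0.0271). Ccrl2, a non-signalling receptor for chemerin, fell by 3 d to 6.43, 9.08 and 7.98 CPM, against 25.7, 37.2 and 30.3 CPM in NW skin. Its log2 change was -1.99 ± 0.37 (edgeR adjusted p = 0.00237).

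Of the 4 atypical receptors, which bind chemokines without signalling through G proteins, 1 was called lower at 16 h, 2 at 1.5 d and 3 at 3 d against NW, and none higher. Among all genes tested 24.7% were called at 16 h, 24.5% at 1.5 d and 21.1% at 3 d (9.15% lower). The median log2 change at 3 d was -2.51, against 0.00 over all genes. Ackr4, the scavenger of CCL19, CCL21 and CCL25, had 0.692, 2.07 and 4.41 CPM at 3 d, against 19.5, 60.0 and 45.9 CPM in NW skin. Its log2 change was -4.12 ± 0.62 (edgeR adjusted p = 0.000686), and it was already -1.80 ± 0.56 at 16 h (edgeR adjusted p = 0.0315). Ackr2, which degrades inflammatory CC chemokines including CCL2, had 3.58, 4.34 and 1.30 CPM at 3 d, against 20.4, 6.28 and 22.6 CPM in NW skin (-2.42 ± 0.79, edgeR adjusted p = 0.0440). Ackr1, the Duffy receptor, had 5.94, 9.20 and 3.32 CPM at 3 d, against 33.9, 37.6 and 40.3 CPM in NW skin (-2.60 ± 0.60, edgeR adjusted p = 0.00851). Ackr3, the CXCL12 scavenger, averaged 254 CPM at 3 d and 418 CPM in NW skin and did not pass the test (edgeR adjusted p = 0.0743). Of the endothelial and lymphatic markers, whose cells also carry some of these receptors, 9 were tested, and at 3 d 1 was called higher and 1 lower. The 1 lower was Tek, at 26.2 CPM at 3 d and 79.3 CPM in NW skin, while the other 9 of the 10 summed to 4.66 to 16.6 CPM at 3 d, against 6.75 to 10.8 CPM in NW skin. Keratinocyte markers took 0.0882 to 1.45% of counts at 3 d, against 2.00 to 4.07% in NW skin. The part of either cell type in the lower receptor levels was not tested.

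**Figure D5:**
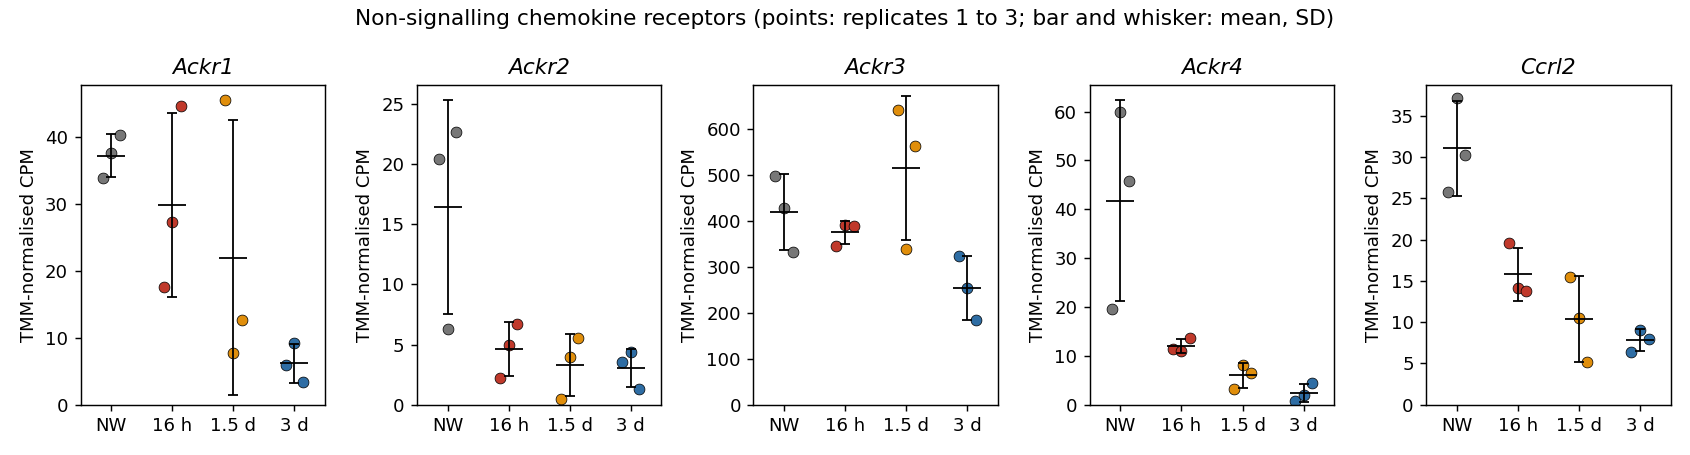
TMM-normalised CPM of the 4 atypical chemokine receptors and Ccrl2 (linear axes from 0, each with its own scale) in the 3 libraries of each group, with mean and SD. Each of these genes has every 3 d library below every NW library. For Ackr3 the margin is small, with 323 CPM in the highest 3 d library and 331 CPM in the lowest NW library. Ackr3 stays at 184 CPM or above in all.

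Genes that act upstream of chemokine transcription changed in both directions. Of 14 receptors for cytokines that induce chemokines, 11 were called higher and 1 lower at 16 h, 10 and 1 at 1.5 d, and 6 and 1 at 3 d. All genes tested gave 24.7% called at 16 h, 24.5% at 1.5 d and 21.1% at 3 d. Il1r1, the signalling receptor of interleukin 1, averaged 631 ± 141 CPM at 16 h and 90.7 ± 42.4 CPM in NW skin (log2 change 2.80 ± 0.33, edgeR adjusted p = 0.000109). Osmr, the oncostatin M receptor gene, averaged 387 ± 107 CPM at 16 h and 79.0 ± 15.5 CPM in NW skin (2.29 ± 0.28, edgeR adjusted p = 0.000149). Ifngr1, a chain of the interferon gamma receptor, was the 1 that fell, to 90.2 ± 7.8 CPM at 3 d, against 254 ± 22 CPM in NW skin (-1.49 ± 0.17, edgeR adjusted p = 7.68e-05). Of 14 NF-kB, AP-1 and C/EBP genes, 1 was called higher and 4 lower at 16 h, 1 and 6 at 1.5 d, and 0 and 6 at 3 d, where 12.0% of all genes were called higher and 9.15% lower. Their median log2 change at 3 d was -0.55, against 0.00 over all genes. The NF-kB subunit genes Nfkb2 and Nfkb1 were those called higher, and are named because of their values. Nfkb2 averaged 239 CPM at 16 h and 157 CPM in NW skin (edgeR adjusted p = 0.0460). Nfkb1 averaged 314 ± 208 CPM at 1.5 d and 129 ± 22 CPM in NW skin (edgeR adjusted p = 0.0332). Its 1.5 d libraries ranged from 143 to 546 CPM and overlapped NW skin, where the highest library had 154 CPM. Fos, an immediate early gene, averaged 1113 ± 305 CPM at 3 d and 3578 ± 430 CPM in NW skin (-1.69 ± 0.30, edgeR adjusted p = 0.00201). Cebpd, of the C/EBP family, and Fosl1, of AP-1, were also lower at 3 d, by -1.64 ± 0.25 (edgeR adjusted p = 0.000818) and -1.35 ± 0.22 (edgeR adjusted p = 0.00109).

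The interferon regulatory factor genes Irf7 and Irf1 changed in opposite directions. Irf7, an interferon-induced factor, averaged 117 ± 37 CPM at 3 d and 24.1 ± 6.1 CPM in NW skin (2.27 ± 0.40, edgeR adjusted p = 0.00175). Irf1 fell to 76.7 ± 10.2 CPM at 16 h, against 312 ± 51 CPM in NW skin (-2.02 ± 0.31, edgeR adjusted p = 0.000675). Of 6 genes that set mRNA decay or stability, 1 was called higher and 2 lower at 16 h, and 0 and 2 at both 1.5 d and 3 d. The shares over all genes tested were 24.7% called at 16 h, 24.5% at 1.5 d and 21.1% at 3 d. Zfp36, whose product tristetraprolin speeds the decay of mRNAs with AU-rich elements, averaged 740.4 ± 225 CPM at 16 h and 1972 ± 105 CPM in NW skin (-1.41 ± 0.29, edgeR adjusted p = 0.0037). Zc3h12a, which encodes the ribonuclease regnase-1, fell by 0.81 ± 0.24 on the log2 scale at 16 h (edgeR adjusted p = 0.0257). Elavl1, which encodes the stabilising protein HuR, rose at 16 h to 277 ± 18 CPM, against 128 ± 17 CPM in NW skin (1.11 ± 0.19, edgeR adjusted p = 0.00127).

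Of 6 proteases that can cleave chemokines, 1 was called higher and 2 lower at 16 h, 1 and 1 at 1.5 d, and 0 and 1 at 3 d. Over all genes tested 24.7% were called at 16 h, 24.5% at 1.5 d and 21.1% at 3 d, and whether the list differs from these shares was not tested. Mmp3, stromelysin-1, had 4039, 3433 and 3068 CPM at 16 h, against 1333, 789 and 801 CPM in NW skin (1.85 ± 0.27, edgeR adjusted p = 0.000412). Dpp4, the dipeptidase CD26 that trims the amino end of CCL11 and other chemokines, had 66.7, 66.7 and 68.0 CPM at 16 h, against 421, 231 and 298 CPM in NW skin. Its log2 change was -2.24 ± 0.36 (edgeR adjusted p = 0.000867). Mmp14, the membrane protease MT1-MMP, averaged 846 ± 120 CPM at 16 h and 1483 ± 468 CPM in NW skin (-0.81 ± 0.25, edgeR adjusted p = 0.0296).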

How the data were processed

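The deposited values are raw counts of fragments per gene symbol. Per the file headers, the authors counted read pairs over exons with featureCounts 2.0.0, using a refGene annotation of mm10, without strand, multi-mapping or overlap options. Fragments that align to several places were therefore not counted. The submitters' processing notes name STAR, SAMtools, Subread and Partek, and versions are not given in the sources used here. Per the labels' protocols, SMART-Seq v4 cDNA went into Nextera XT libraries, which keep no strand.

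Genes were filtered with filterByExpr (14901 of 25239 kept), scaled by TMM and fitted by group over all 12 libraries with edgeR 4.0.16 in R 4.3.3 (robust quasi-likelihood). The 6 pairwise comparisons and an F test for any difference were run, and p-values were corrected over the tested genes (Benjamini-Hochberg), with calls at an adjusted p under 0.05. The SE of a log2 change is approximate, back-calculated from the change and the test's F. The script was tested on simulated data. Levels are CPM, divided by exon length only where genes are set beside each other, and likeness used log2 CPM with a prior count of 2. Bounds from 3 counts cover counting error only. Library totals and their precision open the report, and samples were grouped by their labels.

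The 7 genes and the gene lists were chosen with earlier results of these data known. Named genes are the 7, up to 3 of each list with the smallest F test p, the 3 most alike each member, and the CC chemokine genes beside them; results for a few of these items are not reported here. Alternatives were DESeq2 1.42.0 (size factors, and its own test), total-count scaling, no filter, a filter at 1 CPM in 3 libraries, limma-voom (limma 3.58.1), the 2 groups alone, each library left out, a replicate block, and the keratinocyte share as a covariate.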

Additional observations from a re-analysis of the deposited data

How the results depend on the processing

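The calls for Ccl8 against NW at all 3 times, for Ccl7 at 16 h against NW and for Ccl19 at 3 d against 16 h held in all 21 alternatives. With 1 library left out, the members called of 7 ranged from 2 to 3 at 16 h, 1 to 2 at 1.5 d and 1 to 2 at 3 d against NW, 0 to 1 for 1.5 d over 16 h, 0 to 0 for 3 d over 1.5 d, 1 to 3 for 3 d over 16 h and 3 to 5 for any difference. Against NW at 1.5 d, 1 was called with the keratinocyte covariate. Against NW at 3 d, 1 was called with DESeq2 size factors, total-count scaling, no filter, limma-voom, the 2 groups alone and the keratinocyte covariate. For 1.5 d over 16 h, 0 were called with total-count scaling, no filter and the keratinocyte covariate, and 2 with DESeq2. For 3 d over 16 h, 4 were called with DESeq2 and 1 with the keratinocyte covariate. The causes were not tested.

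Changes that turned sign were all uncalled, and are given on the log2 scale, leave-outs as their whole range. Ccl2 at 1.5 d over 16 h was -0.071 with total-count scaling, -0.029 with limma-voom and -0.45 to 0.30 in leave-outs, and at 3 d over NW -0.036 to 0.47. Ccl5 at 1.5 d over 16 h was 0.059 with limma-voom and -1.44 to 0.73 in leave-outs. Ccl8 at 1.5 d over 16 h was 0.085 with the keratinocyte covariate and -0.79 to 0.34 in leave-outs, at 3 d over 1.5 d -0.018 to 1.01, and at 3 d over 16 h -0.091 to 0.63. Ccl11 at 1.5 d over NW lay at -0.19 to 0.63, and Ccl20 at 3 d over 1.5 d at -0.21 to 0.81.

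Whether same-numbered replicates share a day or litter is not stated, and the main fit did not treat them as pairs. Deviations from group means of same-numbered libraries had r of -0.17 to 0.17 over 18 pairs, 2 of them above 0.1. Differently numbered libraries were not set beside them, so these values cannot settle whether the samples are paired. With the replicate block, 1 member was called at 3 d against NW, 0 at 1.5 d over 16 h, and Ccl2 at 1.5 d over 16 h was -0.026, and the Ccl11 call for any difference was lost (edgeR adjusted p = 0.0675). No pair of replicates agreed within counting noise.

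Fitting only the 2 groups compared gave no value for Ccl19 at 1.5 d or 3 d over NW or at 3 d over 1.5 d, where its counts were under the filter. Ccl5 and Ccl19 are limited by depth, with at most 46 and 151 fragments in a library.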
